A study of Mus musculus with 38 samples.

Results

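The 10 genes described here encode C2-domain proteins of secretory vesicles: the synaptotagmins Syt1, Syt4, Syt5, Syt7, Syt11, Syt12 and Syt17, the cytosolic proteins Doc2a and Doc2b, and rabphilin (Rph3a). They were taken from a fixed list of names, 10 of the 57010 gene IDs in the count table, and the list was chosen by their RNA counts, with 2 results of these data in view: Doc2b was lower after stress in male controls, and Syt12 was lower in mutants. Values of the members in those comparisons, in every comparison of the genotypes, in the genotype by stress interactions, which are built from them, and in stress pooled over all groups are therefore given as descriptions without a test. Stress in male mutants, stress in female controls and stress in female mutants were not used for the choice, and tests are given there, though these comparisons share animals with the ones that were.

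Transmitter and peptide release is triggered when calcium enters a nerve terminal and binds C2 domains, which then engage membrane phospholipids and the SNARE fusion proteins. Syt1 is the fast sensor of synchronous release at forebrain synapses. Syt7, Doc2a and Doc2b bind calcium with higher affinity and are tied to slower, asynchronous or spontaneous release, whereas several other synaptotagmins, Syt12 among them, lack the residues that hold calcium and act in trafficking or modulation. Rabphilin binds the vesicle GTPase Rab3. Taken as a group, these proteins work in both excitatory and inhibitory terminals of the prefrontal cortex, so RNA of the whole tissue pools both.

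RNA was sequenced from the medial prefrontal cortex of 38 mice, each library coming from a separate animal according to the labels. Controls carried SSTCre, a Cre recombinase expressed from the somatostatin gene, and mutants were SSTCre:γ2f/f, in which Cre acts on a floxed allele in somatostatin interneurons; both genotypes thus carry Cre, and the driver restricts its action to a small class of cells. Mice were left unstressed (NS) or exposed to chronic variable stress (CVS), a schedule of changing stressors, for 21 days, and were killed 24 hours after it ended. Among males there were 5 unstressed and 6 stressed controls and 3 unstressed and 4 stressed mutants, and each of the 4 female groups held 5 animals; no age was stated. The series title names the question as GABAergic control of resilience to chronic stress.

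Libraries held 17.64 to 27.51 M counted reads. The glutamatergic marker Slc17a7 stood at 1671 to 2027 CPM (counts scaled to library size) in all libraries, and the GABAergic marker Gad1 at 225 to 353 CPM. The olfactory bulb gene Cdhr1 stood out in 3 male libraries, measuring 25.8 and 27.5 CPM in replicates 2 and 3 of the unstressed mutants and 16.6 CPM in replicate 1 of the stressed controls, against at most 5.20 CPM in the other 35. Other bulb markers did not all follow. Doc2g measured 0.586, 0.936 and 1.24 CPM in these libraries in that order, and up to 1.57 CPM elsewhere. For genotype in unstressed males 3 of the 6 bulb markers tested were positive and 3 negative. Sst RNA averaged 127 ± 6.38 (SD, n = 5) CPM in male control NS and 153 ± 8.12 (n = 3) in male mutant NS animals. Among stressed males it ran from 108 to 136 CPM in controls and from 129 to 158 CPM in mutants. The ranges in females were 109 to 142 and 128 to 143 CPM without stress, and 116 to 132 and 119 to 156 CPM with it. In bulk samples such as these a different number of cells of a type and a different amount of RNA per cell cannot be told apart.

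All 10 genes passed the filter on low counts in both sexes, and per length of exon their RNA spanned more than an order of magnitude. Syt1 was the most abundant, at 206 ± 8.57 CPM per kb of exon (SD, n = 18) in males and 188 ± 7.41 (n = 20) in females. Syt11, which restrains endocytosis, followed at 152 ± 4.53 and 158 ± 5.59, and Rph3a was the third at 133 ± 7.50 and 122 ± 7.64 CPM per kb. Syt1 lay above Syt11 in every library and Syt11 above Rph3a in every library, although in males the ranges of the latter pair overlapped between animals.

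The middle of the order held 3 synaptotagmins. Syt5, a calcium-binding synaptotagmin of secretory vesicles, stood at 83.0 ± 4.92 CPM per kb in males and 86.9 ± 4.92 in females. Syt4, which resides on dense-core vesicles and is induced by activity, stood at 78.2 ± 5.95 and 70.7 ± 4.0. Syt7 stood at 64.2 ± 2.10 and 66.3 ± 2.56. Syt5 exceeded Syt4 in 13 of 18 male and 20 of 20 female libraries, and Syt4 exceeded Syt7 in 18 of 18 male and 18 of 20 female libraries. The ranges of these neighbours overlapped in both sexes, whereas Syt5, from 72.0 CPM per kb in males and 77.4 in females upwards, lay above Syt7, which reached 68.0 and 71.8.

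Doc2a came seventh in every library, at 31.6 ± 1.71 CPM per kb in males and 31.7 ± 2.35 in females. Syt17, once named B/K protein for brain and kidney, came eighth, at 15.9 ± 1.45 and 16.0 ± 1.19. The lowest levels were those of the genes by which the list was chosen: Syt12 at 7.01 ± 0.695 and 6.75 ± 0.744 CPM per kb, and Doc2b at 4.80 ± 0.840 and 4.96 ± 0.675. Syt12 exceeded Doc2b per kb in 19 of 20 female libraries, and their ranges overlapped in both sexes. Doc2b rested on 296 to 583 counts per library in males and 323 to 673 in females, and Syt12 on 607 to 978 and 603 to 1065, whereas Syt1 had 25113 counts or more everywhere. Across the 18 male libraries the coefficient of variation was 17.5% for Doc2b, 9.90% for Syt12 and 9.16% for Syt17, and 2.97% for Syt11. These values include differences between groups, for Doc2b the stress difference by which it was chosen. Within the male groups the coefficient ran from 7.58% to 11.6% for Doc2b, 5.02% to 10.6% for Syt12 and 3.57% to 12.5% for Syt17. The third Doc2 gene, Doc2g, known from the olfactory bulb, averaged 0.621 to 1.15 CPM over the 8 groups.

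**Figure D1:**
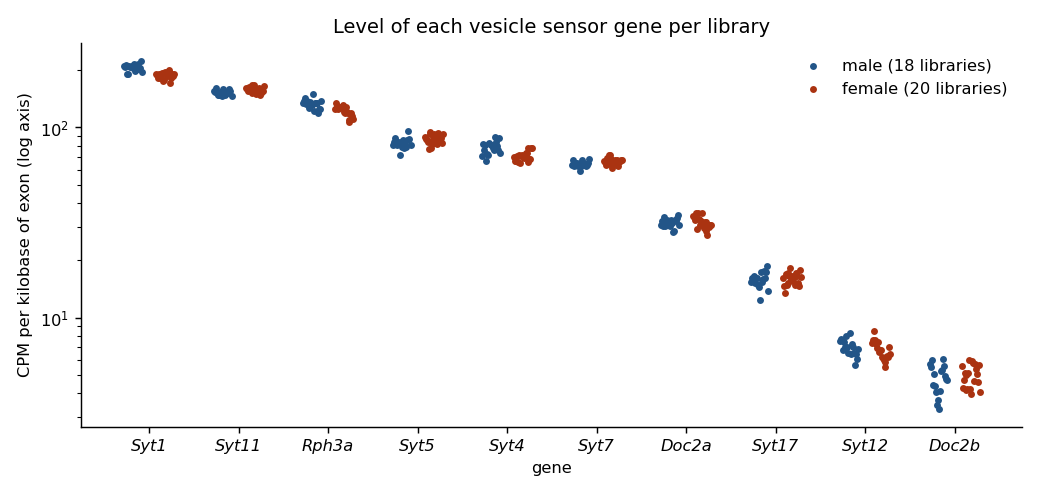
Level of the 10 genes in each library, in CPM per kb of exon on a log axis, males and females apart; each point is 1 animal. Syt1, Syt11 and Rph3a lie at the top in both sexes, Syt4 overlaps both Syt5 and Syt7 in the middle, and Syt12 and Doc2b lie lowest and overlap.

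Doc2b showed the difference that named it, in males. In male control NS animals it measured 24.9, 24.2, 26.2, 19.3 and 22.1 CPM. In male control CVS animals it ran from 14.4 through a median of 17.0 to 19.2 CPM. All 6 stressed controls lay below the lowest unstressed control, though the gap between 19.3 and 19.2 CPM was narrow. The log2 fold change was -0.47 ± 0.0808 (SE), with group means of 23.3 ± 2.71 (SD, n = 5) and 16.8 ± 1.84 (n = 6) CPM. Doc2b was the only member among the 2 genes that passed the adjusted threshold of 0.05 in this comparison, both of them lower, which is 0.0116% of the 17212 genes tested; groups without overlap in the lower direction made up 0.395% of genes. Since this contrast chose the gene, nothing is read from that count. The call was lost in 8 of 11 runs that each left out 1 library (NS replicates 1, 2, 3 and 5 and CVS replicates 2, 3, 4 and 5), with the log2 fold change over all runs between -0.54 and -0.43.

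In male mutants Doc2b lay between 20.6 and 26.4 CPM in both conditions. The 3 mutant NS animals measured 22.9, 23.3 and 26.4 CPM, and the 4 mutant CVS animals measured 24.2, 21.5, 20.8 and 20.6 CPM. These groups overlap, and stress in male mutants, a comparison the choice did not use, gave a log2 fold change of -0.15 ± 0.101 with an adjusted p of 0.9997 (edgeR quasi-likelihood test). Under stress all 4 mutants lay above all 6 controls, with a log2 fold change of 0.37 ± 0.0864; groups without overlap in that direction made up 0.749% of genes. No member was among the 9 genes, 0.0523%, that passed there, or among the 3 genes, 0.0174%, that passed for genotype in unstressed males, where Doc2b had a log2 fold change of 0.05 ± 0.0959. The fitted difference between the stress effects of mutants and controls was 0.32 ± 0.130 on the log2 scale, in a comparison in which 0 members and 0% of genes passed. Pooled over all groups, the stress value of Doc2b was -0.16 ± 0.0564, and 0 members were among the 3 genes, 0.017%, that passed. The stressed control libraries serve both the stress and the genotype comparison, so these values are not separate observations.

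In females Doc2b overlapped between the NS and CVS groups of each genotype. Female control NS animals measured 24.2, 18.6, 20.6, 22.4 and 18.2 CPM of Doc2b, and female control CVS animals 21.9, 18.4, 22.4, 26.2 and 18.3 CPM. The groups cover nearly the same range. The stress effect was 0.05 ± 0.121 (adjusted p = 0.935, edgeR) in female controls and -0.08 ± 0.120 (adjusted p = 0.926, edgeR) in female mutants, where the NS animals measured 17.3, 25.9, 25.1, 20.2 and 24.9 CPM and the CVS animals 23.3, 21.9, 20.0, 24.6 and 17.7 CPM. The difference between the sexes was not tested, since the males and females may be separate cohorts.

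Doc2a, the paralogue of Doc2b that prevails at excitatory forebrain synapses, was flat in the comparison in which Doc2b was lowest. It averaged 88.4 ± 4.54 CPM (SD, n = 5) in male control NS and 88.6 ± 2.28 (n = 6) in male control CVS animals, a log2 fold change of 0.00 ± 0.0452. Per kb of exon, Doc2b RNA amounted to 17.1% ± 2.56 of Doc2a RNA in male control NS and 12.2% ± 1.42 in male control CVS animals, against 18.6% ± 0.174 (n = 3) and 15.3% ± 1.39 (n = 4) in the male mutant groups. In females this share was 14.4% ± 1.26 without stress and 14.8% ± 2.84 with it in controls, and 17.0% ± 2.72 and 16.6% ± 2.52 in mutants (n = 5 each). In male mutants Doc2a measured 79.2, 79.6 and 91.8 CPM without stress and 90.8, 93.8, 96.6 and 86.5 CPM with it; the log2 fold change of 0.14 ± 0.0574 had an unadjusted p of 0.0225 and an adjusted p of 0.9997 (edgeR), and the ranges overlap.

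**Figure D2:**
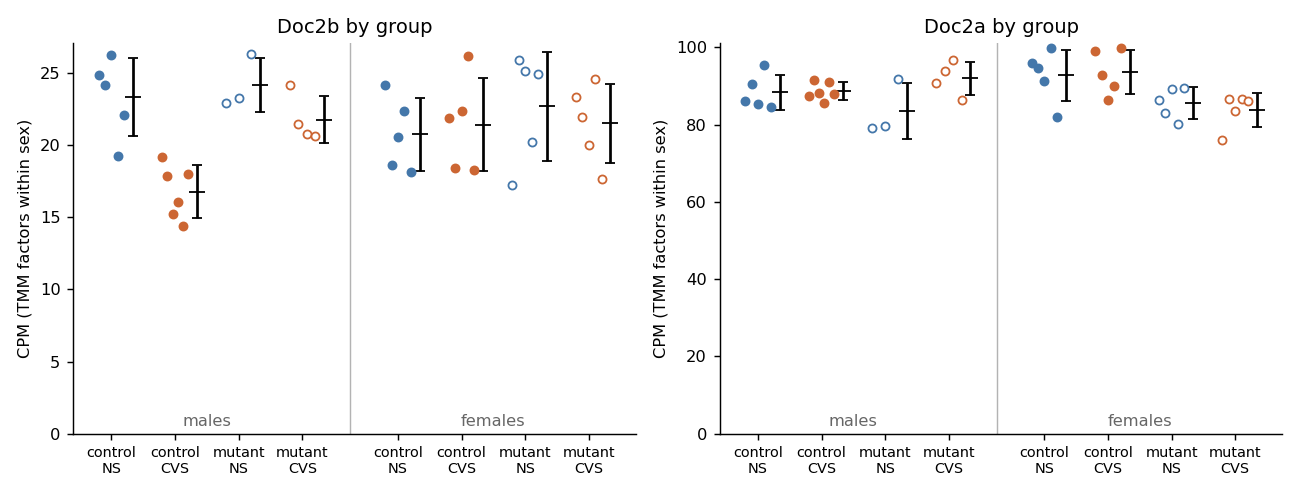
Doc2b and Doc2a in CPM, a panel each, each point 1 animal, with the group mean and SD, for the 8 groups of sex, genotype and stress. The 6 male control CVS animals lie between 14.4 and 19.2 CPM of Doc2b, below the 5 male control NS animals, while Doc2a overlaps between the same groups.

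Other readouts moved in the same male control comparison. Of 12 activity-regulated genes, among them Fos, Arc and Npas4, 12 had negative fold changes with a median log2 value of -0.52, against a median of 0.00 over all genes, and 0 passed the adjusted threshold. Their summed level ran from 730.4 to 1612 CPM in control NS and from 597 to 1167 CPM in control CVS males. In male mutants the same sum ran from 443 to 1194 CPM without stress and from 596 to 818 CPM with it. The 6 endothelial markers were negative in 6 of 6 cases, with sums of 235.5 to 292 CPM in NS and 209.9 to 250.7 CPM in CVS controls, and Cldn5 and Pecam1, which define the cell type, were detected throughout. Astrocyte markers were negative in 5 of 6 cases (4454 to 4921 CPM summed in NS and 4270 to 4673 in CVS controls), as were oligodendrocyte markers (1404 to 1691 and 1251 to 1821 CPM) and microglial markers (341 to 403 and 345 to 372 CPM). Glutamatergic markers were negative in 3 of 6 cases and GABAergic markers in 2 of 6, where 49.9% of all genes were negative. Bulb markers were negative in 2 of 6 cases tested. Striatal markers were negative in 3 of 8, with sums of 189 to 215 CPM in NS and 210 to 226 CPM in CVS controls. The part of all these genes in the Doc2b value was not tested.

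The genes whose levels most resembled Doc2b, by Pearson r of log2 CPM centred on each sex over the 38 libraries, were Nos1 (0.796), which encodes neuronal nitric oxide synthase, Lman2l (0.709), Kctd4 (0.700), Marcks (0.695) and Hsp90b1 (0.655), of 17670 other genes. Among the members, Doc2b was closest to Syt17, with an r of 0.47. These are descriptions over libraries that share the groups and tissue.

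Syt12, a synaptotagmin that does not bind calcium and that has been linked to cAMP-dependent plasticity of release, was lower in mutants, as its choice implies. Female control NS animals measured 41.0, 42.2, 47.2, 42.1 and 40.3 CPM, and female mutant NS animals 34.5, 34.1, 33.0, 32.2 and 30.5 CPM. Every mutant lay below every control, with a gap of several CPM between the groups. The log2 fold change was -0.37 ± 0.0554 (SE). Syt12 was the only member among the 21 genes that passed in this comparison, 0.128% of the 16435 tested, and 1.13% of genes had groups without overlap in the lower direction. Since genotype chose the gene, nothing is read from that count.

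The genotype difference of Syt12 was smaller in the other strata. Male control NS animals measured 41.8, 42.7, 42.2, 37.5 and 41.4 CPM and male mutant NS animals 40.5, 38.7 and 35.9 CPM, which overlap, with a log2 fold change of -0.10 ± 0.0780. Male control CVS animals ran from 35.9 through a median of 39.0 to 46.1 CPM and male mutant CVS animals measured 31.1, 35.5, 33.6 and 37.9 CPM, with a log2 fold change of -0.21 ± 0.0695. Female control CVS animals measured 38.5, 41.5, 36.7, 37.3 and 37.5 CPM and female mutant CVS animals 34.5, 35.0, 34.3, 39.0 and 35.8 CPM, with a log2 fold change of -0.10 ± 0.0553. In these 3 strata the groups overlap. Averaged over both sexes and both conditions, the log2 fold change was -0.20 ± 0.0324, and Syt12 and Rph3a were the 2 members among the 193 genes that passed, 1.09% of 17671; 133 of those genes, 0.753%, were lower.

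Stress had opposite signs for Syt12 in the female genotypes. In female controls 4 of the 5 CVS animals lay below the lowest NS animal, and the log2 fold change was -0.15 ± 0.0548 (unadjusted p = 0.00872, adjusted p = 0.419, edgeR). In female mutants the CVS animals ran from 34.3 to 39.0 CPM against 30.5 to 34.5 CPM without stress, and the log2 fold change was 0.12 ± 0.0559 (unadjusted p = 0.0347, adjusted p = 0.587, edgeR). Neither value passed, and both comparisons use the unstressed animals in which the genotype difference was widest. High controls and low mutants among those animals, which the choice of Syt12 favours, pull the stress values to opposite signs. Nothing is therefore read from these signs or p-values. The interaction in females, the difference of these values, was 0.27 ± 0.0782 and is a description, as it is also the difference of the genotype values. It was the only positive interaction among the 10 members in females, the other 9 lying between -0.12 and -0.02. In male mutants the stress value of Syt12 was -0.15 ± 0.0821 (adjusted p = 0.9997, edgeR), with overlapping groups.

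Rabphilin was lower in mutants by a smaller fold, from a level per kb more than an order of magnitude above that of Syt12. In stressed females, controls measured 591, 594, 586, 608 and 559 CPM and mutants 495, 546, 553, 535 and 512 CPM. The highest mutant lay below the lowest control, and 0.669% of genes had groups without overlap in that direction. The log2 fold change was -0.15 ± 0.0371, and 0 members were among the 4 genes, 0.0243%, that passed. In unstressed females, controls measured 583, 625, 604, 583 and 594 CPM and mutants 552, 591, 558, 550.5 and 508 CPM, with overlap and a log2 fold change of -0.11 ± 0.0370. Males overlapped in both conditions: control NS animals measured 621, 639, 660.0, 618 and 636 CPM against 621, 625 and 620.4 CPM in mutants (-0.03 ± 0.0521), and stressed mutants measured 554, 579, 582 and 642 CPM against 567 to 698 CPM in controls (-0.07 ± 0.0461). Averaged over the strata, the log2 fold change was -0.09 ± 0.0220, and Rph3a did not pass without the 3 libraries high in Cdhr1, or without male mutant NS replicate 3 alone, at -0.09 in both.

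**Figure D3:**
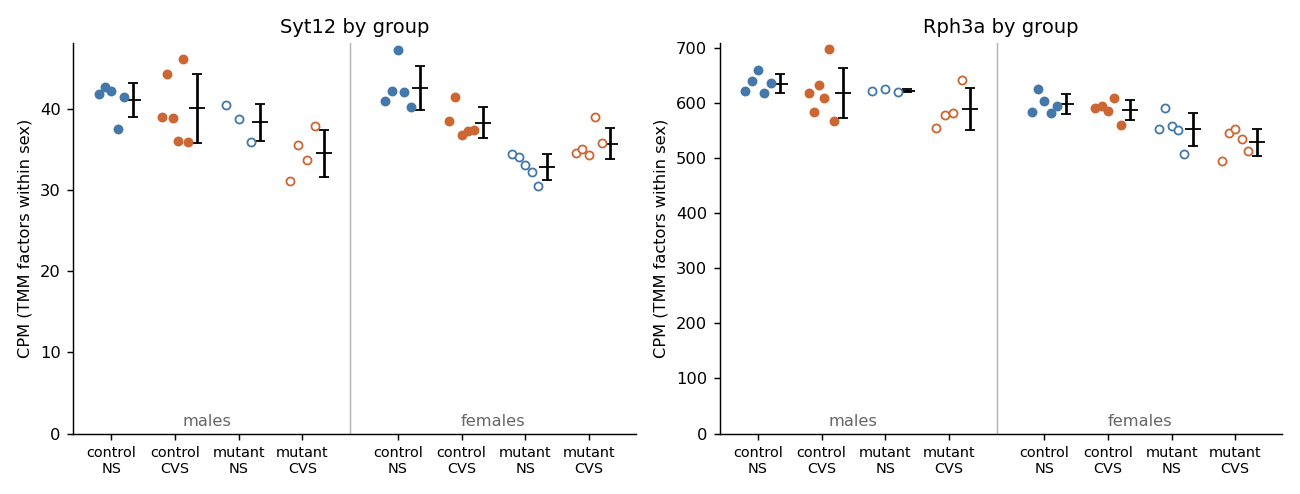
Syt12 and Rph3a in CPM by group, each point 1 animal, with the group mean and SD. The 5 female mutant NS animals lie between 30.5 and 34.5 CPM of Syt12, below the 5 female control NS animals, and the 5 female mutant CVS animals lie below 559 CPM of Rph3a, the lowest female control CVS value.

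Syt12 and Rph3a, unlike in level, also had the highest r of any pair of members over the 38 libraries, 0.683 for sex-centred log2 CPM. By this r Rph3a was the fifth of all genes by likeness to Syt12. Ahead of it were Mmp17 (0.751), which encodes a membrane-bound metalloproteinase, Inf2 (0.736), a formin, Stac2 (0.71), and Vgf (0.705), a neuropeptide precursor. The most opposed pair was Syt17 and Rph3a, with an r of -0.473. Points share tissue, depth and groups, so these values are descriptions.

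Markers of other cells had negative genotype values as well, though not all lists did in every stratum. In unstressed females the 6 astrocyte markers were negative in 6 of 6 cases (summed level 4469 to 5031 CPM in controls and 4174 to 4616 in mutants), as were the 6 endothelial markers (127 to 174 CPM and 111 to 129 CPM). The 6 oligodendrocyte markers were also negative in 6 of 6 cases, with a median log2 fold change of -0.17 and sums of 1103 to 1340 CPM in controls and 1019 to 1256 in mutants, and they were negative in 6 of 6 cases in each of the other 3 strata of sex and stress. Pooled over the strata their median was -0.16, with 6 of 6 at an unadjusted p under 0.05, against 11.2% of all genes, and 0 past the adjusted threshold (edgeR). In unstressed females microglial markers were negative in 5 of 6 cases (296 to 324 CPM in controls and 277 to 308 CPM in mutants). In the same unstressed females the GABAergic markers were negative in 4 of 6 cases, with sums of 701 to 727 CPM in controls and 646 to 729 in mutants. The glutamatergic markers were negative in 4 of 6 there, with sums of 6139 to 6698 and 5819 to 6396 CPM. In stressed females, where the Rph3a groups did not overlap, astrocyte, GABAergic and glutamatergic markers were each negative in 3 of 6 cases. Endothelial markers were negative in 4 of 6 and microglial markers in 5 of 6 there. The part of all these markers in the Syt12 and Rph3a values was not tested. No marker list was at 0 in any library.

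Doc2a was lower in female mutants in both conditions by values that did not reach the calls. It averaged 92.7 ± 6.69 CPM in female control NS and 85.6 ± 4.08 in female mutant NS animals (log2 fold change -0.11 ± 0.0506), and 93.6 ± 5.79 and 83.8 ± 4.45 CPM under stress (-0.16 ± 0.0506; n = 5 each). In males the genotype values were -0.08 ± 0.0549 without stress and 0.05 ± 0.0482 with it, so the direction differed.

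Syt1 and Syt7, sensors of fast and of delayed release, varied little between groups. In males Syt1 averaged 1687 ± 89.6 CPM (n = 5) in unstressed and 1734 ± 46.4 (n = 6) in stressed controls, and 1746 ± 48.0 (n = 3) in unstressed and 1723 ± 101 (n = 4) in stressed mutants. In females its means were 1558 ± 39.4, 1549.9 ± 75.5, 1615 ± 42.4 and 1536 ± 67.6 CPM in the same order (n = 5 each). The value furthest from 0 was the stress effect in female mutants, -0.07 ± 0.0343 on the log2 scale, with an unadjusted p of 0.0429 and an adjusted p of 0.611 (edgeR). Syt7 held between 477 ± 21.2 and 485 ± 17.3 CPM over the male group means and between 493 ± 15 and 505 ± 32.6 over the female ones, with log2 fold changes from -0.04 to 0.04 over all 12 comparisons.

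Among the remaining synaptotagmins, Syt5 measured 186, 195 and 188 CPM in male mutant NS and 204, 228, 207 and 192 CPM in male mutant CVS animals. These overlap, and the log2 fold change was 0.13 ± 0.0567 (unadjusted p = 0.0293, adjusted p = 0.9997, edgeR). Syt4 averaged 292 ± 25.8 CPM in male control NS and 323 ± 24.7 in male mutant NS animals, a log2 value of 0.14 ± 0.0693 that was 0.02 without the 3 libraries high in Cdhr1, and 264 ± 8.66 and 284 ± 12 CPM in the matching female groups, 0.10 ± 0.0435. Syt17 averaged 79.4 ± 7.09 CPM in female control NS and 86.2 ± 6.20 in female control CVS animals (0.12 ± 0.0589, unadjusted p = 0.0499, adjusted p = 0.573, edgeR). Syt11 stayed within -0.06 and 0.04 on the log2 scale in all 12 comparisons.

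**Figure D4:**
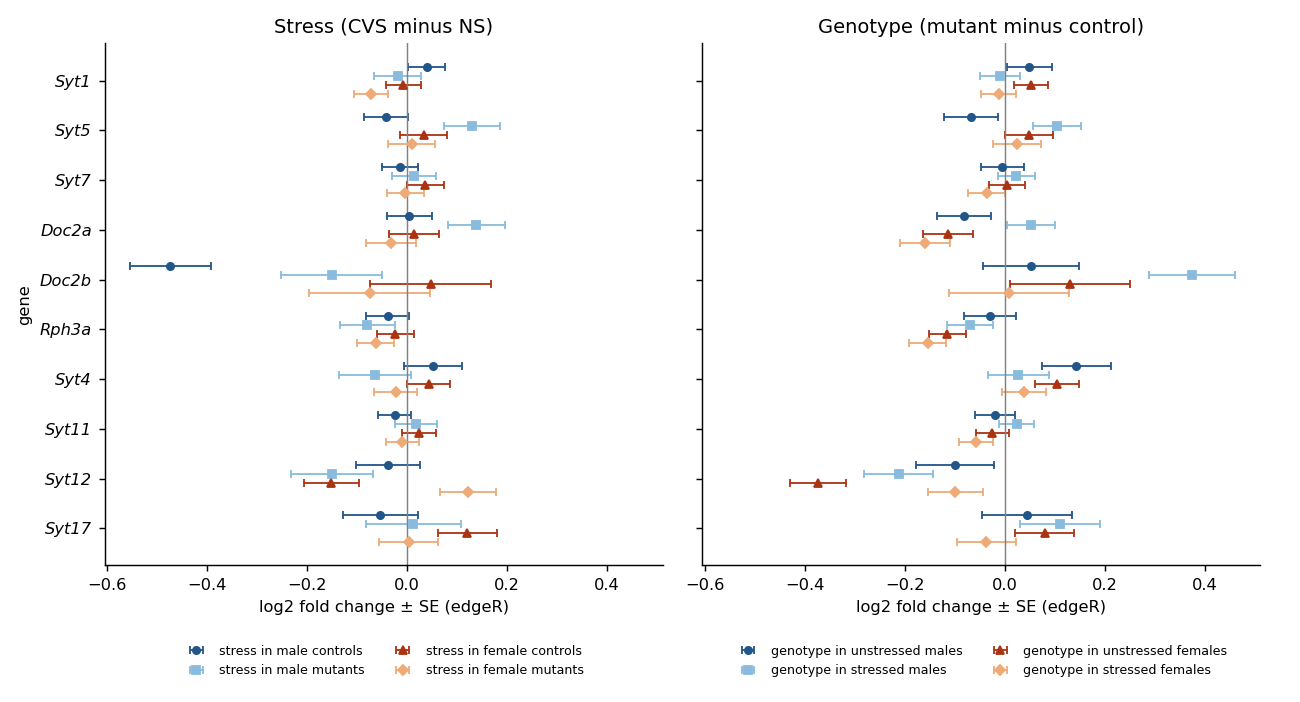
Log2 fold change with SE of the 10 genes for stress (CVS against NS) and for genotype (mutant against control), in males and females, on a common axis. Doc2b at -0.47 in male controls, Syt12 at -0.37 in unstressed females and Doc2b at 0.37 for genotype in stressed males lie furthest from 0, and most other values lie within 0.15 of it.

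In the comparisons that the choice did not use, no member passed the adjusted threshold. In stress of male mutants 0 of 10 members passed edgeR's test, as did 0 of 17212 genes (0%), and 2 members had an unadjusted p under 0.05 against 3.38% of genes; DESeq2 called 0 members too. In stress of female controls 0 of 10 members and 0% of 16435 genes passed, with 2 members under an unadjusted 0.05 against 8.72% of genes. Stress of female mutants gave 0 of 10 and 0%, with 2 members against 7.91% of genes. Syt12 was 1 of the 2 members in both female comparisons, and the unstressed animals of these also entered the genotype comparison that chose it. DESeq2 called 0 members in these female comparisons as well. The interaction in females, given without a test, had 0 members and 0% of genes past the threshold. Medians over the 10 members in the stress comparisons were -0.00, 0.03 and -0.02 on the log2 scale in that order, against 0.00 over all genes in each.

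Of 20 further C2-domain relatives, 18 were tested in males and 17 in females, and 0 passed for stress in either genotype of either sex. Under stress in male controls 8 were positive and 10 negative, with a median log2 fold change of -0.02. Over the pooled genotype comparison 13 of 18 were negative, with a median of -0.02 against -0.00 over all genes, and 2 passed, where 1.09% of all genes did. Syt2, the fast sensor of parvalbumin interneurons and hindbrain synapses, was lower by a log2 fold change of -0.42 ± 0.104 (adjusted p = 0.0398, edgeR). Its means were 32.2 CPM in female control NS and 20.4 CPM in female mutant NS animals, a wider difference than the pooled value. Syt10, a sensor of peptide-containing vesicles, was higher by 0.51 ± 0.133 (adjusted p = 0.0387, edgeR) at a low level, with means of 1.42 and 2.31 CPM in male control and mutant NS animals and 1.32 and 1.99 CPM in females.

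The docking, priming and fusion machinery that these sensors act on held 38 genes, all tested. In stress of male controls 25 were positive and 13 negative with a median log2 fold change of 0.03, where 50.1% of all genes were positive, and 0 passed. Among the comparisons of stress in females the smallest p-values belonged to the active zone scaffold Rims1, at -0.13 ± 0.0448 in controls (adjusted p = 0.400, edgeR), and to the vesicle GTPase Rab3c, at -0.12 ± 0.0467 in mutants (adjusted p = 0.502, edgeR). In the pooled genotype comparison 27 of 38 were negative with a median of -0.02, where 50.1% of all genes were negative. Of the 38 genes 1 passed, where 1.09% of all genes did: Vamp1, a SNARE of the vesicle membrane, was lower by -0.22 ± 0.0518 (adjusted p = 0.0240, edgeR). Its means were 85.2 CPM in female control NS and 73.1 CPM in female mutant NS animals. They were 98.2 and 78.2 CPM in stressed male controls and mutants, a wider difference than the pooled value. Pvalb, named here after its values were seen, had a pooled log2 value of -0.30 ± 0.0842 (adjusted p = 0.0833, edgeR). It was the lowest of the 6 GABAergic markers, of which 4 were negative and 2 positive, up to 0.19. Of these markers 1 passed as higher, Sst at 0.19, against 0.34% of all genes. The part of Pvalb or Sst in the Syt2 and Vamp1 values was not tested.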

How the data were processed

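Total RNA was isolated from dissected tissue and treated with DNase, and mRNA libraries were made with a directional kit and read as paired ends, per the labels' protocols. The submitters' processing notes name fastp 0.23.2, STAR 2.7.10b and featureCounts, with GRCm39 as the genome. A single table of 57010 IDs holds the deposited raw counts, which the authors did not normalize; 22462 IDs were 0 in every library and 52029 were given a symbol. Neither the annotation nor the strand setting is stated in the sources used here. Symbols and exon lengths came from GENCODE vM21 (GRCm38), another build, used for these and for exon overlaps only. Opposite-strand exons overlap those of Doc2a (Ino80e, 1103 bp), Doc2b (Gm12339, 241 bp), Syt12 (A930001C03Rik, 950 bp), Syt4 (Gm26658, 566 bp) and Syt7 (Gm26859, 384 bp). Of these partners Ino80e reached 35.9 CPM in a library and Gm12339, A930001C03Rik and Gm26658 at most 0.429, 1.03 and 2.62 CPM.

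Counts were fitted with edgeR 4.0.16 in R 4.3.3 (quasi-likelihood, robust, TMM, filterByExpr with minimum count 10 and minimum total 15), with 4 groups per sex (17212 genes in males, 16435 in females) and 8 groups for pooled contrasts (17671 genes). P-values were adjusted by Benjamini-Hochberg over all tested genes, threshold 0.05. The SE was taken as the absolute log2 fold change over the root of edgeR's F, and CPM used TMM factors within a sex. Levels were not compared across the sexes. The same steps were tested on simulated counts. Alternatives were DESeq2 1.42.0, its size factors (RLE), no filter, each library left out, and the 3 libraries high in Cdhr1 left out. Members, lists, comparisons and alternatives were chosen with earlier results of these data known. The naming rule took all members, from each further list the genes that passed and up to 4 with the smallest p, and for Doc2b and Syt12 the 5 genes of highest r. The gene targeted in the mutants is not reported here.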

Additional observations from a re-analysis of the deposited data

Results flagged for a closer look

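Of 70 combinations of a member and a group of 4 to 10 animals, 4 held an animal far from the rest of its group; chance gives about 1 in 20. Syt4 measured 252 CPM in female control CVS replicate 2, against 275 to 280.4 CPM in the other 4 animals. Syt12 measured 37.5 CPM in male control NS replicate 4, against 41.4 to 42.7 CPM in the others, and 47.2 CPM in female control NS replicate 3, against 40.3 to 42.2 CPM. Doc2a measured 76.1 CPM in female mutant CVS replicate 1, against 83.6 to 86.6 CPM.

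Syt12 had opposite signs with stress, and every stressed animal lay on one side of the unstressed group's mean: log2 fold changes were -0.15 in female controls (5 of 5 animals below) and 0.12 in female mutants (5 of 5 above), and -0.15 in male mutants (4 of 4 below). Neither the difference between the female genotypes nor that between male and female mutants was tested, the first because it is built from the genotype values that chose the gene. For the same reason nothing is read from the opposite signs in females. These came from 80 pairs of a member and 2 comparisons.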

How the results depend on the processing

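Log2 fold changes of the members counted as the same in 2312 combinations of member, comparison and setting. These kept their side of the threshold and, as a rule, moved by less than the spread within groups. A change of sign within that spread was counted as the same. So was a larger move of unchanged sign in the stress comparisons that the choice did not use and in the female interaction. Of the other combinations 10 lost the call, 3 gained it, 3 moved by more than the spread and 2 reversed. Without the 3 libraries high in Cdhr1, which leaves 1 male mutant NS library that is assumed to vary like the other groups, Syt4 turned to 0.0603 for stress in male mutants (adjusted p = 0.988, edgeR) and Syt17 to -0.0400 for genotype in unstressed males, and 1 member in place of 2 passed in the pooled genotype comparison. Leaving out 1 library at a time gave 0 to 1 members for stress in male controls, with 0 in the runs without NS replicates 1, 2, 3 or 5 or CVS replicates 2, 3, 4 or 5, and 1 to 2 for pooled genotype, where the run without male mutant NS replicate 3 lost Rph3a. For genotype in stressed males 1 member, Doc2b, passed with no filter and 1 with DESeq2, and for genotype in stressed females 1, Rph3a, passed with DESeq2. The cause was not tested. No paired analysis was possible because the labels number each animal on its own.

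Counts over all genes, unfiltered and with DESeq2, were 15 and 23 for stress in male controls (2 in the text), 51 and 24 for stress in female controls (0), 36 and 28 for stress in female mutants (0), 118 and 90 for genotype in unstressed females (21), 23 and 20 for genotype in stressed females (4), 11 and 4 for genotype in unstressed males (3), 43 and 27 for genotype in stressed males (9), 6 and 38 for pooled stress (3), 5 and 0 for the interaction in females (0), and 192 and 295 for pooled genotype (193). Without the 3 libraries they were 93 for pooled genotype, 36 for pooled stress, 11 for genotype in unstressed males, 5 for genotype in stressed males, 8 for stress in male mutants and 7 for the male interaction (0 and 0 with all libraries). Depth limits Doc2b most among the members, with 296 counts in its lowest library.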
